A study of Mus musculus with 4 samples.

Results

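Dendritic cells were followed through 4 single-cell RNA libraries of mouse aorta, where they made up 171 of 37865 kept barcodes. A barcode was kept with at least 1000 UMIs (unique molecular identifiers, each counting 1 captured RNA molecule) and at most 10% of them mitochondrial. A kept barcode was a member when Flt3, Cd209a, Xcr1, Clec9a and Ccr7 summed to at least 2 UMIs and the class II genes Cd74, H2-Aa, H2-Ab1 and H2-Eb1 to at least 20. It also had to hold at most 4 UMIs of C1qa, C1qb and C1qc together and none of Cd79a, Ms4a1 or Cd3e. The members were chosen by these measured values, which are given below as a description only. The aortas were perfused and digested with collagenase and liberase, and droplet libraries of 3' RNA ends were made from the cells.

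The 4 libraries, 1 per group, were WT aorta on normal diet, LysM-DKO aorta on normal diet, WT/ApoE-/- aorta on western diet and LysM-DKO/ApoE-/- aorta on western diet. Values in lists of 4 stand in that order throughout. The title of the series names epsins, endocytic adaptor proteins that bind clathrin and ubiquitinated cargo, and LysM refers to the myeloid gene Lyz2, whose promoter is used to drive Cre. ApoE-/- mice lack apolipoprotein E and build up plasma cholesterol and plaques. Both western-diet libraries were ApoE-/- and both normal-diet libraries were not, so diet and ApoE genotype cannot be told apart. The labels give neither the number of animals behind a library nor their age. With 1 library per group there was no replicate, no test between groups was possible, and every interval printed here is a 95% interval that covers counting error only.

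Dendritic cells are the leukocytes that take up antigen in tissue and show it to T cells on MHC molecules. Conventional type 1 cells carry XCR1 and CLEC9A and are known for cross-presenting dead-cell antigen on class I, while type 2 cells carry CD209A, SIRPA and CLEC10A and are known for class II presentation. On maturation both types induce the chemokine receptor CCR7 and leave through lymphatic vessels for the draining node. In the healthy artery they lie mostly in the adventitia and at branch points of the intima, and they increase in atherosclerotic wall.

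The libraries held 63, 43, 58 and 7 members. Their summed UMIs came to 408772, 328710, 316688 and 69199, with median UMIs per member of 6071, 8141, 5318.5 and 9460. At these totals 3 UMIs, the floor used for a gene not seen, correspond to 7.34, 9.13, 9.47 and 43.4 CPM (UMIs of a gene per 1000000 UMIs), so an absent gene says least in the LysM-DKO/ApoE-/- library. Between 9 and 41 kept barcodes were shared by pairs of libraries, and none of them was a member. Over all kept barcodes the median depth was 4167, 3404, 2103 and 6761 UMIs. Levels below are CPM of the summed UMIs of the members of a library.

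The label was checked against markers of other cells, and the members turned out to be a mixture. After the values had been seen, 3 groups were set apart. The first, with at least 5 UMIs of 12 B cell genes outside the rule and more of them than of either the pan-dendritic or the plasmacytoid list, held 20, 8, 5 and 0 members. Their depth was low, with medians of 2774.5, 2124.5 and 1834 UMIs in the 3 libraries that had them. Median pan-dendritic UMIs per barcode were 2, 2 and 3, against 30, 44 and 27 in the members left after setting the groups apart. Part of this difference is built in, because the group was set by having fewer pan-dendritic than B cell UMIs. Ccr7, which B cells also express, was the gene that let them in: 2 of these 33 barcodes had a UMI of another dendritic gene of the rule.

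Plasmacytoid genes reached at least 40 UMIs in 4, 1, 0 and 0 members. Plasmacytoid dendritic cells are interferon producers of the same name but a separate lineage. Siglech, a surface lectin of that lineage, counted 49, 11, 1 and 0 UMIs, and the gut-homing receptor gene Ccr9 counted 139, 21, 6 and 2. Smooth muscle genes reached at least 100 UMIs in 5, 0, 6 and 3 members, so 3 of the 7 members of the LysM-DKO/ApoE-/- library carried a heavy load of wall RNA. The remaining 119 members, 34, 34, 47 and 4, had medians of 253, 395, 237 and 207 class II UMIs. Results below are for all members and, where they move, for these 119 too.

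**Figure D1:**
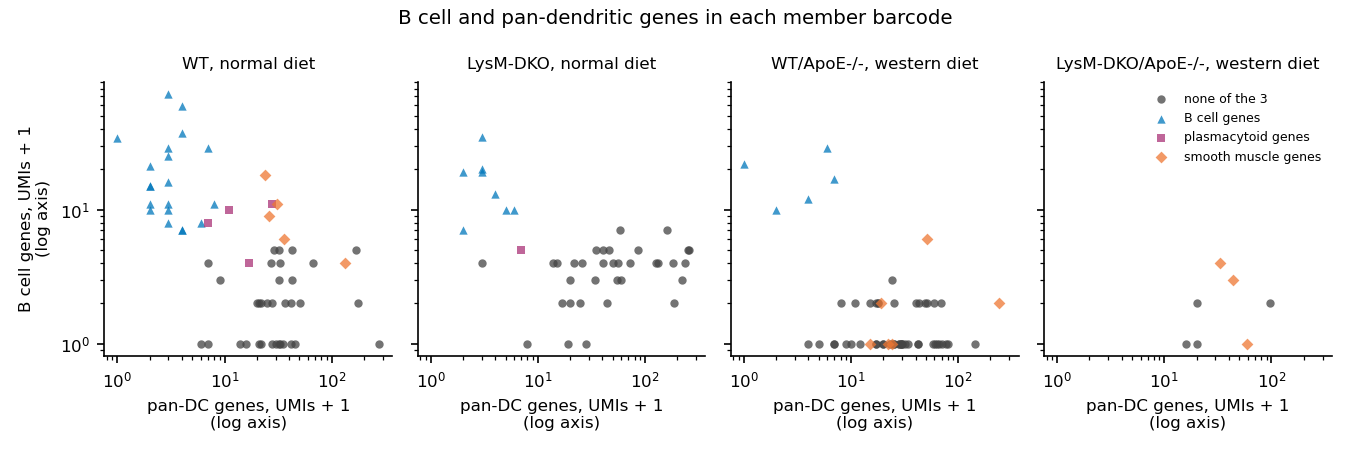
UMIs of the 12 B cell genes (vertical, log axis, 1 added) against UMIs of the pan-dendritic genes (horizontal, log axis, 1 added) in each member barcode, 1 panel per library. The 33 barcodes rich in B cell genes sit at the upper left, away from the 119 members with none of the 3 signatures, partly because both counts drawn helped to set them apart.

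T cell, NK cell and neutrophil genes left few UMIs. The 13 T cell genes used summed to 32, 23, 5 and 3 UMIs, the 10 NK cell genes to 3, 3, 1 and 0, and the 10 neutrophil genes to 5, 0, 8 and 1. Macrophage genes outside C1q stood at 364.5, 481, 733 and 448 CPM in members against 14220.0, 12137, 18768 and 8080 CPM in macrophage barcodes (C1q genes summed to at least 10) of the same libraries. Il7r, a cytokine receptor gene of lymphoid and mature dendritic cells, counted 126, 126, 77 and 10 UMIs.

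Ccr7 (ENSMUSG00000037944; GRCm38 chromosome 11, 99144196 to 99155077, minus strand) carried most of the selection. It was detected in 58, 37, 44 and 2 members, 141 of 171 in all (82.5%), at 1076, 818, 714 and 144 CPM. A Ccr7 UMI was found in 0.889, 0.970, 0.643 and 0% of smooth muscle barcodes, which should lack the gene and had median depths of 7412, 6536, 2474 and 7056 UMIs. The source of Ccr7 in those barcodes was not tested. For 30, 13, 18 and 1 members Ccr7 was the lone dendritic gene of the rule. Within those, 19, 7 and 5 in the first 3 libraries were barcodes rich in B cell genes.

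Flt3 (chromosome 5, 147330741 to 147400489, minus strand), the receptor for the growth factor that dendritic cells depend on, was found in 28, 18, 22 and 1 members. Xcr1 (chromosome 9, 123852315 to 123862029, minus) or Clec9a (chromosome 6, 129408862 to 129424763, plus), the type 1 pair, was found in 9, 14, 11 and 2. Cd209a (chromosome 8, 3743397 to 3748984, minus), the type 2 lectin, was found in 8, 10, 24 and 5. Cd209a was thus found in 12.7% (5.65 to 23.5) of members in WT aorta on normal diet and in 41.4% (28.6 to 55.1) in WT/ApoE-/- aorta on western diet. Thinned to 1000 UMIs per member, the Cd209a shares were 7.94%, 18.6%, 22.4% and 28.6%.

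Members with no UMI of Ccr7 numbered 5, 6, 14 and 5. A count of 0 does not show that a cell was immature, since thinning to 1000 UMIs left Ccr7 in 65.1, 53.5, 48.3 and 0% of members. Of the 5 in the WT library on normal diet, 3 belonged to the plasmacytoid group. Type 1 members without Ccr7 numbered 1, 5, 5 and 1, and type 2 members without Ccr7 or the type 1 pair 3, 1, 8 and 4. A lone Flt3 made a member in 1, 0, 1 and 0 cases. Just inside the threshold, 14, 8, 14 and 2 members had exactly 2 dendritic UMIs, and just outside it 35, 30, 22 and 3 barcodes met every other condition with 1.

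Members were scarcest in the LysM-DKO/ApoE-/- library. On normal diet their share of kept barcodes was 0.812% (0.625 to 1.04) in WT aorta. The LysM-DKO aorta on that diet had 0.522% (0.378 to 0.703). On western diet it came to 0.422% (0.321 to 0.545) in WT/ApoE-/- and 0.0861% (0.0346 to 0.177) in LysM-DKO/ApoE-/- aorta. Thinning every barcode to 1000 UMIs left 23, 20, 22 and 2 members, or 0.297%, 0.243%, 0.160% and 0.0246%. The LysM-DKO/ApoE-/- library also had few leukocytes, with 181 barcodes holding a UMI of the pan-leukocyte gene Ptprc against 1950, 2257 and 1952. Of the 63, 43, 58 and 7 members, 42, 37, 52 and 7 had a Ptprc UMI themselves. As a share of Ptprc barcodes, these came to 2.15%, 1.64%, 2.66% and 3.87% (1.57 to 7.81 in the last), so the order of the libraries differed from that over kept barcodes. Outside the 3 groups set apart, the libraries held 34, 34, 47 and 4 members.

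**Figure D2:**
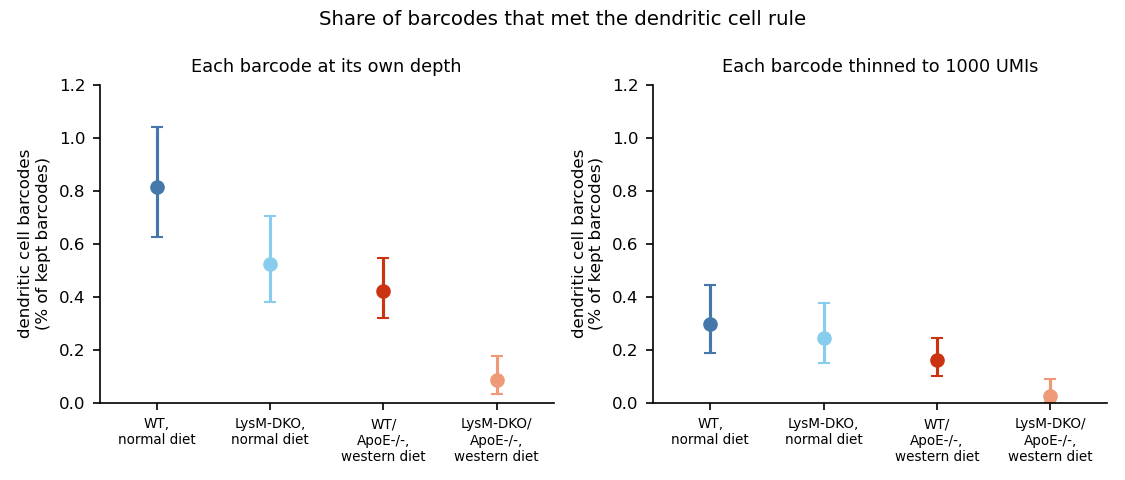
Dendritic cell members as a percent of kept barcodes in each library, at full depth (left) and after thinning every barcode to 1000 UMIs (right). Points are shares and bars exact 95% binomial intervals for counting error. The LysM-DKO/ApoE-/- library is lowest in both panels, at 0.0861% and 0.0246%.

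The genes that stood highest in members over all other kept barcodes of the same library, leaving out the genes of the rule, included cytokine and growth factor receptor genes. Il1b, the interleukin-1 beta precursor gene, was at 988, 1004, 3410.3 and 1532 CPM against 254, 353, 288 and 305 in macrophage barcodes. It was therefore higher in dendritic members than in macrophages of every library. Csf2rb, the shared receptor chain for GM-CSF, was at 448, 931, 458 and 231 CPM and its paralogue Csf2rb2 at 83.2, 131, 142 and 116 CPM, and these near-identical genes may share reads. Il1r2, the decoy receptor for interleukin-1, was at 171, 186, 448 and 130.1 CPM with 5.40, 3.54, 3.45 and 4.38 in macrophages.

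Costimulation and checkpoint genes were in this set. Cd80, the ligand of CD28 and CTLA-4 on T cells, stood at 176, 137, 174 and 144 CPM in members and 8.10, 7.08, 4.83 and 5.84 in macrophages. Havcr2, which encodes TIM-3, was at 149, 134, 167 and 86.7 CPM. Il12b (a chain of interleukin-12), Ccl22 (a chemokine for regulatory T cells) and Il4i1 (an amino acid oxidase of mature cells) were the mature genes named. Il12b was at 844, 262, 237 and 57.8 CPM and Il4i1 at 134, 97.3, 37.9 and 14.4 CPM. Zfp366, a transcriptional regulator known as DC-SCRIPT, was at 100.3, 91.3, 63.1 and 43.4 CPM, and Plbd1, a lysosomal phospholipase-like gene, at 181, 326, 313 and 202 CPM.

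Mcemp1, Ifitm1, Timd4 and Tnip3 completed the 15. Ifitm1, an interferon-induced membrane protein gene, rested on few cells: 15, 17, 21 and 3 members had a UMI, and 40 of the 53 UMIs in the LysM-DKO/ApoE-/- library came from 1 member. Tnip3, an inhibitor of NF-kappaB signalling, was seen in 16, 17, 31 and 5 members at 184, 201, 303 and 275 CPM. Mcemp1, a mast cell and myeloid membrane protein gene, was lowest in the WT library on normal diet, at 26.9, 82.1, 117 and 86.7 CPM. Timd4, a phosphatidylserine receptor gene, stood at 44.0, 94.3, 53.7 and 72.3 CPM in members and at 72.9, 30.7, 1.38 and 23.3 CPM in macrophages, which were thus higher in the first library.

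**Figure D3:**
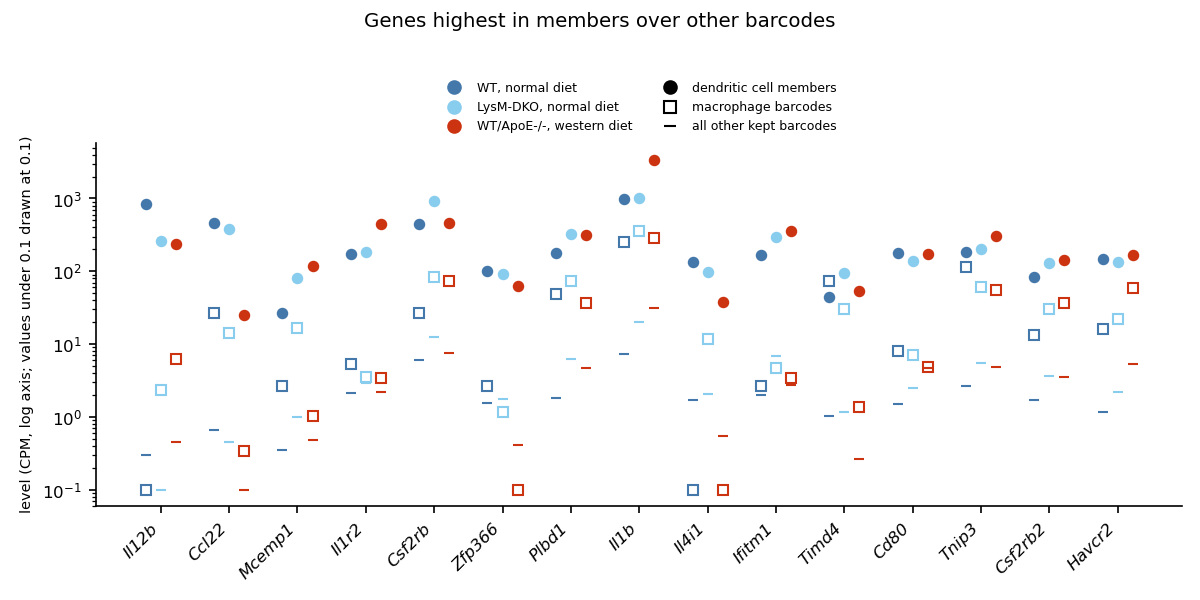
Levels (CPM, log axis) of the 15 genes with the highest ratio of members over other kept barcodes, ranked by the lowest of their ratios in the 3 libraries with at least 20 members. Filled circles are members, open squares macrophage barcodes and dashes all other kept barcodes of the same library. Values under 0.1 CPM are drawn at 0.1. Il1b has the highest member level, 3410.3 CPM in WT/ApoE-/-, and Timd4 is the gene where macrophages of 1 library lie above members.

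Against macrophages alone, the leading genes added the class II chaperones that tune peptide loading. H2-Oa, a chain of the H2-O inhibitor of loading, was at 115, 146, 126 and 86.7 CPM in members and 0, 0, 0.690 and 0 in macrophages, and H2-DMb2, a chain of the loading catalyst, at 108, 125, 133 and 28.9 and 0, 3.54, 4.14 and 1.46. Both are B cell genes too, at 62.4, 86.0, 103 and 59.8 and 77.3, 103, 129 and 119.5 CPM in B cell barcodes. Their levels in the 119 members were 159, 154, 147 and 78.1 and 155, 132, 155 and 39.0 CPM, higher than over all members in the first 3 libraries. Kit, the stem cell factor receptor, was at 110.1, 173, 133 and 86.7 CPM with 0, 0, 3.45 and 0 in macrophages. Klrd1 (CD94), P2ry10 (a lysophosphatidylserine receptor) and Siglecg (an inhibitory lectin) made up the rest, at 61.2, 97.3, 161 and 217, 210.4, 195, 256 and 144 and 44.0, 54.8, 44.2 and 28.9 CPM.

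Among the 119, the genes used to sort them into subsets were set aside and the others compared as a description. Members with Ccr7 numbered 94, type 1 members without it 11 and type 2 members without it 13. Type 1 here meant a UMI of Xcr1 or Clec9a, with or without Cd209a. The libraries were pooled, and WT on normal diet gave 32, 0 and 2 of these members. In that order Cst3, the cystatin C gene that is very high in type 1 cells, was at 4232, 10144 and 2955 CPM, and Naaa, a lysosomal amidase of type 1 cells, at 74.0, 336 and 44.1. Irf8, the type 1 fate factor, was at 234, 456 and 14.7 CPM. Clec10a and Mgl2, galactose-type lectins of type 2 cells, were at 104, 13.4 and 206 and 306, 322 and 588 CPM. All 24 Mgl2 UMIs of the type 1 members came from barcodes with 1 Xcr1 UMI that also held Cd209a. Ccr2, the receptor that brings in monocyte-derived and type 2 cells, was at 69.6, 107 and 249.9.

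Pooled over the libraries, the mature genes were highest in the Ccr7 members. Fscn1, the actin bundler of mature cell veils, stood at 203, 0 and 0 CPM and Ccl5 at 2116, 0 and 58.8. Samsn1, a signalling adaptor, was at 927, 201 and 265 CPM and Tbc1d4, a Rab GTPase activator, at 1050.1, 228 and 368. Il1b was found in all 3 pooled subsets, at 2054, 2093 and 3102 CPM. Cd86, the second CD28 ligand, was also spread over them, at 338, 295 and 485 CPM.

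Across the libraries, measures other than diet moved with it and are given before any contrast. Xist, transcribed from the inactive X chromosome, counted 565, 345, 0 and 0 UMIs in members and the Y-linked Ddx3y 0, 0, 51 and 10, so the normal-diet libraries read as female and the western-diet ones as male. The file headers name cellranger 6.0.1 for the normal-diet and 6.1.2 for the western-diet libraries. Sex, software version, ApoE and diet cannot be told apart in any western over normal ratio. Ratios are log2 of CPM with 0.5 UMIs added, for genes that reach 20 UMIs in the 2 libraries together, and a gene counts as past 2 fold at a log2 ratio of at least 1 either way. Single-gene ratios given after members were left out did not have to reach that minimum, and some rest mainly on the 0.5 UMIs added. A gene low in 1 library reached that minimum only through the other, so list counts cover the measured genes and not whole lists, and they leave out the genes of the rule for the mature, type 2 and class II lists.

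The labels do not name the genes deleted in LysM-DKO, and the epsin genes were too sparse in these cells to check a deletion. Epn1, epsin 1, counted 22, 21, 8 and 3 UMIs in 17, 14, 8 and 3 members (53.8, 63.9, 25.3 and 43.4 CPM). Epn2, epsin 2, counted 10, 4, 5 and 0 and Epn3 none. A 3' count does not show whether a deleted exon is missing, so it checks nothing where the deletion leaves the transcript end. Apoe counted 61, 62, 0 and 0 UMIs, with none in either ApoE-/- library. Lyz2, the gene behind the LysM driver, was at 169, 228, 587 and 28.9 CPM in members and 3796, 1094, 5182 and 801 in macrophages. In members it was found in 13, 12, 28 and 2 barcodes and stood below the macrophage level in all 4 libraries.

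Maturation genes, summed over members, stood highest in WT aorta on normal diet. Summed over 19 genes of the mature list other than Ccr7, levels were 9056, 4895, 3161 and 1879 CPM, and 13648, 5188, 3152 and 1367 in the 119 members. Few members carried these sums, and the median over members was 2493, 2128, 1755 and 992 CPM. From WT on normal diet to WT/ApoE-/- on western diet, 0 of 17 measured mature genes were past 2 fold higher and 10 past 2 fold lower, with a median log2 ratio of -1.22. Over all 4742 genes measured in that contrast, 20.2% were past 2 fold, 9.64% higher and 10.6% lower, with a median of -0.04. Outside the 3 groups the count was 0 higher and 13 lower of 16, against 13.3% and 10.7% of 3454 genes. The LysM-DKO libraries gave 0 higher and 9 lower of 14 from normal to western diet, against 15.9% higher and 13.6% lower of all 2983 genes. For LysM-DKO over WT on normal diet the counts were 1 higher and 4 lower of 18, against 4.40% and 9.90% of 4638 genes, and outside the 3 groups 1 and 8 of 18, against 5.54% and 6.46% of 3594.

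Ccl5, a chemokine for T cells and monocytes, counted 1149, 287, 27 and 0 UMIs (2811, 873, 85.3 and 0 CPM). It was carried by 15, 11, 8 and 0 members, and 535 of the 1149 UMIs of the first library came from 1 of them. Its log2 diet ratio in WT was -5.02 (-5.65 to -4.49), and its genotype ratio on normal diet -1.69 (-1.88 to -1.50). Fscn1 counted 121, 14, 11 and 0 UMIs in 16, 7, 4 and 0 members, with ratios of -3.03 (-4.13 to -2.20) for diet in WT and -2.75 (-3.71 to -2.00) for genotype on normal diet. The highest member gave 32 of the 121 UMIs of the first library. These directions held over all members and outside the 3 groups, but among the 5 and 14 members without Ccr7 the WT diet ratio was 1.96 for Ccl5, 1.60 for Relb, 1.11 for Ccl22 and 0.38 for Serpinb6b.

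Il12b counted 345, 86, 75 and 4 UMIs in only 9, 4, 3 and 1 members, and single members held 194, 83 and 57 of them in the first 3 libraries. Without the highest member of each library the genotype ratio on normal diet went from -1.68 to -5.10. Ccl22 counted 190, 127, 8 and 0 UMIs, of which 1 member gave 176 in the first library and 1 gave 84 in the second, and its diet ratio in WT went from -4.12 to -0.80 without the highest member of each library. Apol7c, an apolipoprotein L gene that mature type 1 cells induce, counted 143, 1, 0 and 0 UMIs in 6, 1, 0 and 0 members. Samsn1 was detected more widely, in 35, 30, 34 and 4 members, at 956, 629.7, 410.5 and 144 CPM. Serpinb6b, a serpin gene, and Relb, an NF-kappaB subunit of maturation, were also highest in the first library and lowest in WT/ApoE-/-, at 247, 134, 34.7 and 57.8 and 174, 164, 82.1 and 116 CPM.

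Other mature genes had another order. Tbc1d4 was at 800.0, 602, 944 and 520.2 CPM and was within 2 fold in all 4 contrasts over all members. Ccl17, a chemokine for CCR4-bearing T cells, was instead highest in LysM-DKO aorta on normal diet, with 5, 88, 5 and 0 UMIs, 56 of the 88 from 1 member. Ccr7 itself, which helped to choose the members, was at 1076, 818, 714 and 144 CPM and, within the 94 unmixed Ccr7 members, at 1514, 964 and 885 CPM in the first 3 libraries. Among those 94, the first 3 libraries kept the same order for Fscn1 (499, 54.6 and 27.0 CPM), Samsn1 (1481, 722 and 491 CPM) and Serpinb6b (400.1, 168 and 21.6 CPM).

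**Figure D4:**
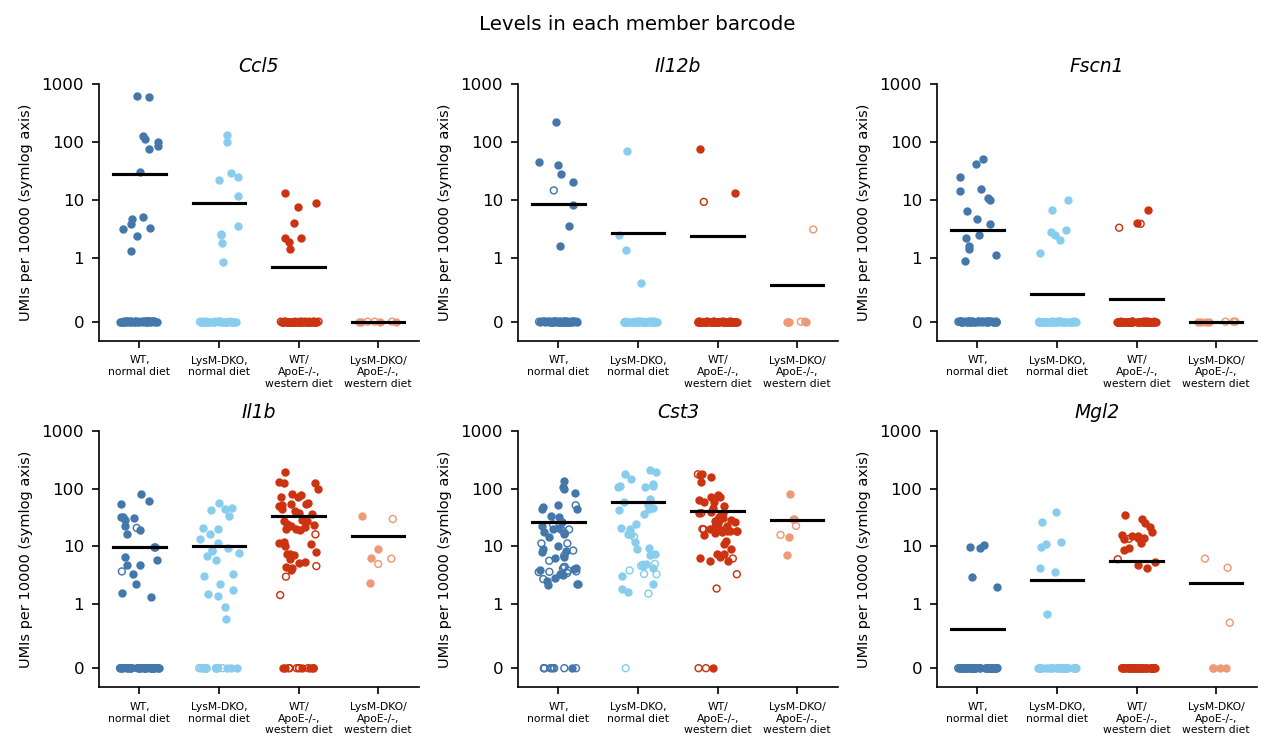
UMIs per 10000 of 6 genes in each member barcode (symmetric log axis, linear below 1), by library. Filled points are the 119 members with none of the 3 signatures, open points the 52 others, and black bars the level of the library's summed UMIs. Ccl5, Il12b and Fscn1 are carried by few members and highest in WT on normal diet, while Il1b is found in 46 of 58 members of WT/ApoE-/-.

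Type 2 genes were higher on western diet in WT. From normal to western diet in WT, 6 of 9 measured genes of the type 2 list were past 2 fold higher and 1, Irf4, past 2 fold lower, with a median of 1.87, against 9.64% and 10.6% of all genes. The count outside the 3 groups was 6 of 9 higher and 0 lower, against 13.3% and 10.7% of all 3454 genes there. Mgl2 counted 25, 85, 178 and 16 UMIs in 5, 8, 19 and 3 members (61.2, 259, 562 and 231 CPM), highest in WT/ApoE-/- and lowest in WT on normal diet. Its log2 ratios were 3.18 (2.59 to 3.87) for diet in WT and 2.06 (1.42 to 2.79) for LysM-DKO over WT on normal diet. Clec10a stood at 17.1, 51.7, 215 and 86.7 CPM, with a diet ratio in WT of 3.56 (2.53 to 5.02), and the integrin gene Itgam (CD11b) at 12.2, 51.7, 136 and 130.1 CPM, with 3.35 (2.14 to 5.17).

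LysM-DKO aorta on normal diet lay between the WT libraries for Mgl2, Clec10a and Itgam. There 4 of the 9 type 2 genes were past 2 fold above WT (Clec10a, Mgl2, Itgam and Csf1r) and 1, Irf4, below, with 4.40% higher and 9.90% lower among all 4638 genes of the contrast. Csf1r was no longer past 2 fold outside the 3 groups. Mgl2, Clec10a, Itgam and Csf1r are also macrophage genes. Macrophage barcodes had Mgl2 at 483, 515, 70.4 and 199.9 CPM. C1q, the macrophage marker that the rule limits, was absent from 60, 38, 49 and 7 members.

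Ccr2, a receptor for entry into inflamed tissue, was higher on western diet, at 29.4, 24.3, 183 and 159 CPM. It was found in 6, 5, 19 and 5 members, and its diet ratio in WT was 2.60 (1.73 to 3.67). Macrophage Ccr2 was at 21.6, 24.8, 33.1 and 26.3 CPM.

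Of 24 pattern recognition genes 5 reached the minimum of 20 UMIs in the WT diet contrast, and no count over them is given. Tlr2 and Cd14 were higher on western diet in WT. Tlr2, the lipoprotein receptor, counted 7, 5, 54 and 5 UMIs in 6, 4, 24 and 4 members and Cd14, the endotoxin co-receptor, 35, 90, 118 and 7 in 7, 13, 34 and 3. Their ratios were 3.23 (2.17 to 4.70) and 2.11 (1.57 to 2.71). Cd14 was also higher in LysM-DKO than in WT on normal diet, 1.67 (1.10 to 2.28). Among the 5 and 6 members without Ccr7 that ratio was -2.56 for Cd14, without the minimum of 20 UMIs. For Clec10a it was -0.73 there, but each library had 1 UMI, so that value reflects only the summed UMIs of those members. Cd14 is a monocyte and macrophage gene, at 1015, 1010.4, 782 and 900.2 CPM in macrophage barcodes.

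Il1b was the cytokine gene with the most UMIs among those named here. Its UMIs were 404, 330, 1080 and 106 in 22, 24, 46 and 7 members, and after thinning to 1000 UMIs the shares of members with a UMI were 20.6, 25.6, 60.3 and 57.1%. Western diet against normal diet gave a log2 ratio of 1.79 (1.62 to 1.96) between the WT libraries. Between the LysM-DKO libraries it gave 0.61 (0.28 to 0.93). On normal diet the genotypes lay together, with a ratio of 0.02 (-0.19 to 0.24). In the 94 unmixed Ccr7 members the levels were 1324, 1195 and 4232 CPM, with WT/ApoE-/- again highest, and macrophage barcodes stood at 254, 353, 288 and 305 CPM.

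Other cytokines were sparse. Osm, oncostatin M, counted 5, 1, 27 and 3 UMIs in 3, 1, 16 and 3 members, with a diet ratio in WT of 2.69 (1.40 to 4.54). Il6 ran against it, with 36, 12, 3 and 0 UMIs and a ratio of -3.01 (-5.56 to -1.55). Of the 7 cytokine genes measured in that contrast, 2 were past 2 fold higher (Il1b and Osm) and 2 lower (Il12b and Il6), against 9.64% and 10.6% of all genes. For LysM-DKO over WT on normal diet, 0 of 6 were higher and 3 lower, Il12b, Il6 and Tnf, against 4.40% and 9.90%. Outside the 3 groups 0 of 6 were higher and 4 lower, with Ebi3, against 5.54% and 6.46% of all genes.

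Inflammatory chemokines rested on few members. Cxcl2, a neutrophil attractant, was at 616, 1569.8, 1664 and 246 CPM, but single members held 160 of 252 UMIs in the first library and 221 of 516 in the second, and macrophages stood at 37017, 24838, 6337 and 10643 CPM. Cxcl1 counted 3, 39, 87 and 0 UMIs in 3, 11, 13 and 0 members, Ccl4 360, 84, 25 and 4 with 250 from 1 member, and Cxcl9, a T cell attractant induced by interferon gamma, 44, 16, 70 and 0. Over 12 measured chemokines, 5 were past 2 fold higher and 5 lower in the WT diet contrast, against 9.64% and 10.6% of all genes. For genotype on normal diet it was 5 and 5 of 13, against 4.40% and 9.90%. Both contrasts gave 4 and 4 outside the 3 groups, against 13.3% and 10.7% of all genes for diet in WT and 5.54% and 6.46% for genotype on normal diet. The 5 lower on western diet were Ccl3, Ccl4, Ccl5, Ccl7 and Ccl22, and the 5 higher Ccl6, Ccl9, Cxcl1, Cxcl2 and Cxcl9. Ccl3 and Cxcl9 were no longer past 2 fold outside the 3 groups, and among members without Ccr7 the ratio of Cxcl2 was -1.88 for diet in WT and -3.22 for genotype on normal diet.

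The class II loading genes H2-DMa, H2-DMb1, Ctss and Ifi30 were lowest in WT aorta on normal diet, but not every gene of the class II list was. H2-DMa and H2-DMb1 encode the catalyst that exchanges peptides on class II. H2-DMa was at 152, 332, 467 and 304 CPM, in 32, 33, 45 and 7 members, and H2-DMb1 at 93.0, 279.9, 417 and 477 CPM. For LysM-DKO over WT on normal diet their log2 ratios were 1.12 (0.67 to 1.60) and 1.58 (1.03 to 2.17), and for diet in WT 1.62 (1.19 to 2.08) and 2.15 (1.63 to 2.73). Without the 3 groups set apart the genotype ratios were 0.95 and 1.35. H2-Aa, a rule gene, had a genotype ratio of 0.53.

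Ctss, cathepsin S, which trims the invariant chain, was at 374, 870.1, 1055 and 448 CPM, and Ifi30, a lysosomal thiol reductase, at 306, 699.7, 897 and 405 CPM. Their genotype ratios on normal diet were 1.22 (0.93 to 1.51) and 1.19 (0.87 to 1.52), and without the 3 groups 0.90 and 0.74, no longer past 2 fold. Napsa, an aspartic protease of dendritic and B cells, stood at 90.5, 268, 319 and 116 CPM, in 21, 29, 37 and 6 members, with ratios of 1.55 (0.99 to 2.16) for genotype on normal diet and 1.80 (1.26 to 2.40) for diet in WT. Of the 9 class II list genes measured for genotype on normal diet, 4 were past 2 fold higher and 0 lower, against 4.40% and 9.90% of all genes. H2-DMb1 alone was past 2 fold once the 3 groups were left out. Low-depth barcodes rich in B cell genes, 20 in WT and 8 in LysM-DKO, moved with that contrast. Among the 5 and 6 members without Ccr7 the genotype ratio on normal diet was -0.18 for Ctss and -0.11 for Napsa. For diet in WT 5 of 10 class II list genes were past 2 fold higher and 1, H2-Eb2, lower, against 9.64% and 10.6%. For diet in LysM-DKO it was 0 and 3 of 9 (H2-DMb2, H2-Eb2 and Lgmn), against 15.9% and 13.6%. Genotype on western diet gave 0 and 4 of 9, against 24.4% past 2 fold either way. Outside the 3 groups these gave 5 and 2 (13.3% and 10.7%), 1 and 3 (17.8% and 16.2%) and 0 and 2 (25.9% either way).

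H2-K1 stood at 1940.0, 2151, 1629 and 679 CPM, lowest in LysM-DKO/ApoE-/-. Psmb9, an immunoproteasome subunit, was at 26.9, 70.0, 94.7 and 14.4 CPM. It was the 1 gene of 18 in the class I list past 2 fold for genotype on normal diet, against 14.3% of all genes, with a ratio of 1.35 (0.28 to 2.56). Among the 5 and 6 members without Ccr7 that ratio was -0.73, the value that equal UMIs in both libraries give there. Ly75, the endocytic receptor DEC-205, was at 97.8, 79.1, 37.9 and 0 CPM, with a ratio of -1.33 (-2.44 to -0.41) for diet in WT. Among members without Ccr7 its ratio was 1.11, the same value as for Ccl22, which had no UMI there on normal diet.

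Cd86 was at 289, 252, 382 and 202 CPM and Cd83, which stabilises CD86 and class II at the surface, at 497, 310.3, 382 and 318 CPM. Cd80, Cd86 and Cd83 were within 2 fold in all 4 contrasts over all members. Pdcd1lg2, the PD-1 ligand PD-L2, was the 1 gene of 10 past 2 fold for genotype on normal diet over all members, against 14.3% of all genes. It counted 14, 30, 9 and 0 UMIs in 10, 19, 8 and 0 members, with a ratio of 1.39 (0.45 to 2.44). Tnfsf4, the OX40 ligand, counted 16, 2, 29 and 1 UMIs.

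Among lineage factors, Irf8 stood lower in both western-diet libraries than in both normal-diet ones. Irf8, needed for type 1 and plasmacytoid cells, was at 421, 338, 85.3 and 57.8 CPM, in 28, 17, 18 and 1 members. Its diet ratio in WT was -2.28 (-2.95 to -1.71), and -2.15 in the members outside the 3 groups, where the levels were 341, 286, 75.3 and 156 CPM. Irf4, a factor of type 2, mature and B cells, stood at 132, 39.5, 53.7 and 28.9 CPM, highest in the first library. Its UMIs outside the 3 groups were 14, 7, 10 and 1, and the first library was then at 55.5 CPM. Id2, shared by all conventional types, was at 925, 873, 1096 and 275 CPM, and Zbtb46, the factor that marks conventional dendritic cells, at 85.6, 85.2, 50.5 and 14.4. Of 23 measured factors, 0 were past 2 fold higher and 1 lower for genotype on normal diet, against 4.40% and 9.90% of all genes. Outside the 3 groups it was 1 higher and 2 lower of 22, against 5.54% and 6.46%.

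**Figure D5:**
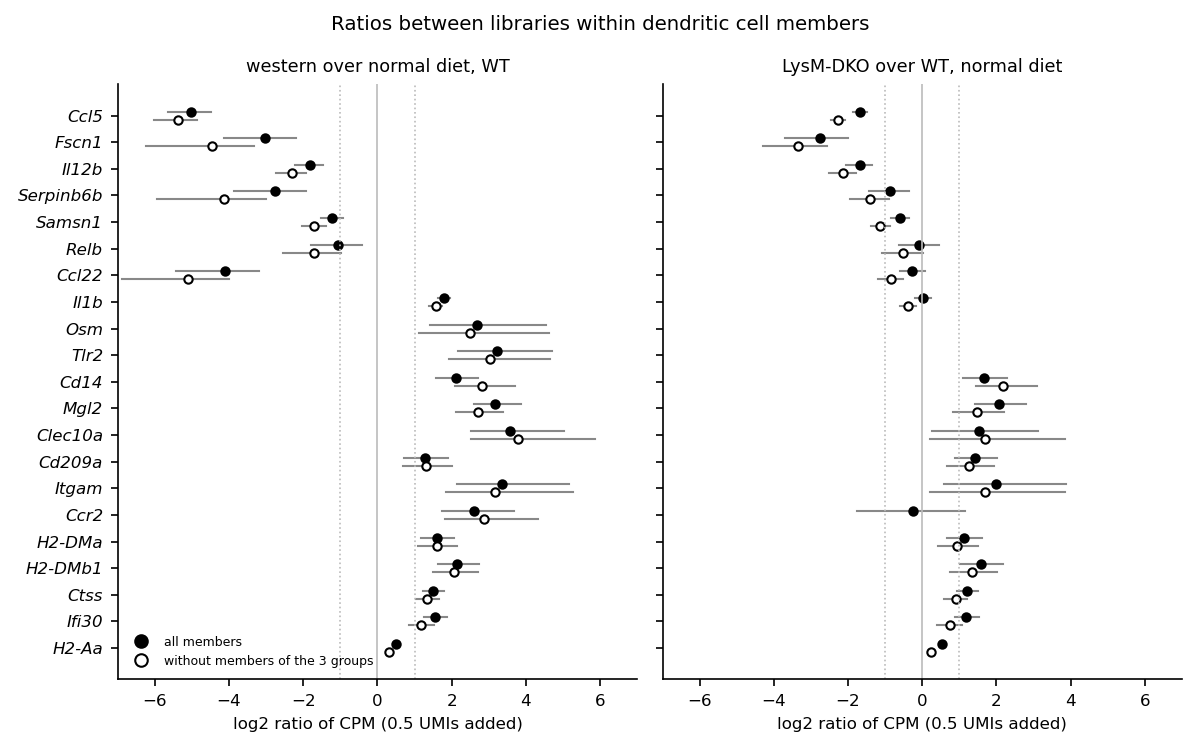
Log2 ratios of CPM within members for 21 genes, western over normal diet in WT (left) and LysM-DKO over WT on normal diet (right). Filled points are all members, open points those outside the 3 groups, lines 95% counting intervals cut at 7 either way, and dotted lines mark 2 fold. Among the genes drawn, mature ones lie left and type 2, pattern recognition and class II loading ones right of 0 in the diet panel, with Il1b at 1.79. Not drawn are genes that went the other way there over all members, among them Irf4 (type 2), H2-Eb2 (class II) and Tbc1d4 (mature).

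Beyond the lists, the largest genotype ratios on normal diet were carried by few cells. Higher in LysM-DKO were Cytl1, Cxcl3, Mmp12, Ccl17 and Cd207. Cytl1, a secreted cytokine-like protein gene of cartilage, counted 3, 115, 3 and 0 UMIs with 111 of the 115 in 1 member, and its ratio of 5.36 (3.99 to 7.87) became 1.98 without the highest members. Cd207, langerin, counted 2, 39, 1 and 0 UMIs in 2, 5, 1 and 0 members, 29 of the 39 in 1, and Mmp12, an elastase of macrophages, 1, 25, 80 and 8. Lower were Apol7c, Areg, Tcf7, Cfb and Ly6d. Tcf7, a T cell and progenitor factor, counted 21, 0, 4 and 0 UMIs, Areg, an epidermal growth factor receptor ligand, 33, 0, 23 and 6, and Cfb, complement factor B, 32, 1, 8 and 0 with 30 of the 32 in 1 member. Ly6d counted 82, 4, 9 and 0 UMIs, none of them outside the 3 groups.

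On western diet the genotype contrast rested on 7 members against 58. Dsp, Igf2r, Fbxo32, Gdf15 and Npy1r led the higher genes, at 19, 16, 17, 18 and 19 UMIs in the LysM-DKO/ApoE-/- members. Dsp, Igf2r, Fbxo32 and Npy1r had none in the 4 members outside the smooth muscle group, and Acta2, the smooth muscle actin gene, was at 4369, 1289.9, 3174 and 9479.9 CPM. Smooth muscle RNA therefore moved with these ratios. The lower genes were Cxcl1, Cxcl9, Mrc1, Fabp5 and Lyz2. Lyz2 counted 69, 75, 186 and 2 UMIs, a ratio of -4.03 (-7.40 to -2.47), and the fatty acid binding protein gene Fabp5 130, 179, 117 and 1, a ratio of -4.10 (-9.99 to -2.17) that became 1.99 among the members without Ccr7. Mrc1, the mannose receptor, counted 9, 9, 65 and 0.

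Over all 3051 genes of that contrast, 24.4% were past 2 fold, 377 higher and 367 lower, a 50.7% share of higher. Outside the 3 groups 25.9% of 2214 genes were past 2 fold. Scaling by the median ratio of well-measured genes moved the median of all genes by 0.19 and that share to 65.7%. For diet in LysM-DKO the shift was 0.20 and the share went from 53.9% to 66.0%. In the WT diet contrast the shift was -0.02 and for genotype on normal diet 0.04. Chemokines stood lower in LysM-DKO/ApoE-/-, with 0 of 8 past 2 fold higher than WT/ApoE-/- and 5 lower, in all members and outside the 3 groups. The class I list had 6 of 15 lower and 1 higher, but 2 of 13 lower and 0 higher outside the 3 groups.

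Some genes had the same sign of genotype ratio on both diets with an interval apart from 0 in each. Besides Cd209a, a gene of the rule, the higher ones were Tmx1, Ifitm1, Crip1, Prdx2, S100a10 and Hspa8. On western diet Cd209a went the other way outside the 3 groups, at 156 CPM (4 UMIs) in LysM-DKO/ApoE-/- against 289 CPM in WT/ApoE-/-. Without the highest member of each library the western-diet ratio of Ifitm1 was -0.63. S100a10, an annexin A2 partner, was at 125, 335, 376 and 578 CPM, with genotype ratios of 1.42 (0.93 to 1.93) on normal and 0.63 (0.07 to 1.15) on western diet. Crip1, a LIM domain protein gene, had 0.67 (0.48 to 0.86) and 0.97 (0.54 to 1.37). Tmx1, a thioredoxin of the endoplasmic reticulum, counted 12, 24, 13 and 9 UMIs and Prdx2, a peroxiredoxin, 59, 74, 57 and 22, while Hspa8, the constitutive Hsc70 chaperone, was within 2 fold on both diets over all members.

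Lower on both, in a list limited to 10 genes, were Plagl1, Ccl5, Il12b, Cd69, Gcnt2, Nabp1, Pa2g4, Cxcl9, Syk and Eprs. The normal-diet ratio of Cxcl9 was 0.82 with equal weight for each member, and that of Nabp1 was 1.15 among members without Ccr7. Eprs, a tRNA synthetase gene, was at 560.2, 228, 568 and 304 CPM in 47, 28, 44 and 5 members, with ratios of -1.29 (-1.69 to -0.91) and -0.88 (-1.63 to -0.25). Gcnt2, a glycosyltransferase gene, was at 213, 85.2, 313 and 43.4 CPM, with -1.30 (-1.99 to -0.69) and -2.63 (-5.15 to -1.26). Syk, the kinase behind C-type lectin and Fc receptors, was at 139, 70.0, 224 and 57.8 CPM, with -0.98 (-1.76 to -0.27) and -1.80 (-3.87 to -0.54). Nabp1, a single-strand DNA binding protein gene, counted 171, 58, 46 and 2 UMIs, the activation marker Cd69 37, 10, 48 and 3, Plagl1 20, 2, 20 and 0 and Pa2g4 34, 12, 36 and 1.

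The largest diet ratios in WT, higher on western diet, were of Mmp12, Hist1h1b, Cxcl1, Ifi44 and Cysltr1. Mmp12 counted 1 UMI on normal and 80 on western diet, in 11 members, where macrophages also stood high, at 5.40, 151, 718 and 606 CPM. Cysltr1, a leukotriene receptor, was found in 1, 6, 16 and 2 members. The interferon gene Ifi44 counted 1, 0, 24 and 0 UMIs, and the replication-dependent histone gene Hist1h1b 0, 1, 25 and 20, 20 of the last from 1 member. Lower were Apol7c, Scin, Atp1b1, Il2rb and Ccl5, with 41, 10, 0 and 1 UMIs for the actin-severing Scin, 32, 6, 0 and 0 for Il2rb and 34, 12, 0 and 0 for Atp1b1. In LysM-DKO the higher genes were Hist1h1b, Dsp, Npy1r, Tent5a and Slc41a1 and the lower Ccl5, Ccl22, Cytl1, Ccl17 and Fabp5. Of these Tent5a, a non-canonical poly(A) polymerase gene, was higher on western diet with both genotypes, at 53.8, 24.3, 278 and 260.1 CPM, and Slc41a1 had 16 of its 17 UMIs in 1 member. The diet ratio in LysM-DKO was -0.12 for Slc41a1 without the highest members, 0.053 for Cytl1 without doublet-marked barcodes, and -0.13 for Dsp and -0.52 for Npy1r outside the 3 groups. Outside those groups the LysM-DKO/ApoE-/- members had no UMI of Dsp or Npy1r.

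Abca1 was lower in members than in macrophages of all 4 libraries. Abca1, a cholesterol exporter, was at 48.9, 39.5, 123 and 57.8 CPM in members and 324, 423, 786 and 604 in macrophages, with a diet ratio in WT of 1.31 (0.52 to 2.19) that was -1.37 among members without Ccr7. Abcg1, the exporter named in the series title, counted 4, 17, 11 and 0 UMIs (9.79, 51.7, 34.7 and 0 CPM), against 29.7, 49.6, 404 and 266 CPM in macrophages. Lipa, the lysosomal acid lipase gene, was highest in LysM-DKO on normal diet, at 95.4, 259, 44.2 and 57.8 CPM, with a genotype ratio of 1.43 (0.88 to 2.02). Of 13 measured efflux genes, 3 were past 2 fold higher (Abcg1, Lipa and Soat1) and 0 lower for genotype on normal diet, against 4.40% and 9.90% of all genes. The 3 of 10 higher outside the 3 groups, against 5.54% of all genes, were Scd1, Lipa and Soat1, and Abcg1 fell under the UMI minimum. Lgals3, galectin-3, was at 313, 891, 470.5 and 419 CPM, with a genotype ratio of 1.51 (1.21 to 1.82).

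Of 16 measured endocytic adaptor genes, the class to which epsins belong, 1 was past 2 fold higher and 0 lower for genotype on normal diet, against 4.40% and 9.90% of all genes, and outside the 3 groups 0 of 15 either way. The gene past 2 fold over all members, Dab2, an adaptor for LDL receptor family cargo, was at 19.6, 57.8, 290.5 and 72.3 CPM, with ratios of 1.51 (0.30 to 2.96) for genotype (0.85 outside the 3 groups) and 3.81 (2.85 to 5.15) for diet in WT. Picalm, a clathrin assembly protein gene, was at 418, 627, 1099 and 824 CPM, with a diet ratio in WT of 1.39 (1.12 to 1.67). Mki67, a proliferation marker, was found in 9, 10, 20 and 4 members, at 61.2, 57.8, 186 and 260.1 CPM, with a diet ratio in WT of 1.59 (0.91 to 2.34). In that contrast 3 of 7 measured cell cycle genes were past 2 fold higher and 0 lower, against 9.64% and 10.6% of all genes. Outside the 3 groups the count was the same, against 13.3% and 10.7%.

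The interferon list had 2 genes past 2 fold higher and 3 lower of 10 in the WT diet contrast, against 9.64% and 10.6% of all genes. For genotype on normal diet it had 0 and 2 of 8, against 4.40% and 9.90%. Genes of dissociation stress, against the same shares, had 2 of 20 past 2 fold higher and 3 lower in the first and 0 of 20 and 2 in the second. In LysM-DKO/ApoE-/- over WT/ApoE-/- 4 of 20 stress genes were past 2 fold higher, against 12.4% of all genes, and 0 lower. Outside the 3 groups it was 2 of 17 higher, against 11.8% of all genes, and the list's median went from 0.53 to -0.09. For diet in WT the counts there were 4 higher and 3 lower for stress, and 1 and 3 for interferon, against 13.3% and 10.7% of all genes.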

How the data were processed

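The deposited files hold raw UMI counts per gene and barcode, 1 matrix for each of the 4 libraries, on 32285 genes. Per the file headers they were made with cellranger 6.0.1 (normal diet) and 6.1.2 (western diet), and per the submitters' processing notes with Cell Ranger 6.1.2, Seurat 4.1.0 and mm10. No cell annotation was used. Barcodes were filtered and members chosen by the rule in the text, with scanpy 1.11.5 and pandas 2.3.3 under python 3.11.15. The members and gene lists were chosen with earlier results of these data known. Member UMIs were summed per library and scaled to CPM. Intervals are exact Poisson for levels and exact (Clopper-Pearson) binomial for shares and ratios. The steps were tested on simulated data. Doublet scores came from scrublet, whose automatic threshold marked few western barcodes, so the top 0.8% per 1000 scored barcodes were marked: 7, 5, 0 and 2 members, kept in the results. Of 517 list genes, 6 are not analysed here.

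Genes were named by rule. They are the 15 highest in members over other barcodes, the 10 highest over macrophages, the 5 largest ratios each way in each contrast, and up to 10 genes each way whose genotype interval lay on the same side of 0 on both diets. Genes named by a ratio between libraries also had to reach, in the higher library, the level of all other kept barcodes. Genes named beside these, from the lists, were chosen after their values were seen. Alternatives changed the depth, mitochondrial, dendritic, class II and C1q thresholds, doublet removal, thinning, scaling and UMI minimum. Results that need withheld items are not reported here.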

Additional observations from a re-analysis of the deposited data

Results flagged for a closer look

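For 13 genes the genotype ratio (log2, LysM-DKO against WT) was past 2 fold one way on normal diet and past 2 fold the other way on western diet. With 1 library per group the difference between the diets was not tested. Ctss, cathepsin S, was at 1.22 on normal and -1.21 on western diet. Cxcl1, a neutrophil attractant, was at 3.81 on normal and -5.26 on western diet, where the LysM-DKO/ApoE-/- members had 0 UMIs and the value rests on the 0.5 UMIs added. Cxcl2, another, was at 1.35 on normal and -2.72 on western diet. Napsa, an aspartic protease, was at 1.55 on normal and -1.38 on western diet. Ifi30, a lysosomal thiol reductase, was at 1.19 on normal and -1.12 on western diet. Mmp12, an elastase, was at 4.40 on normal and -1.05 on western diet. Mgl2, a galactose-type lectin, was at 2.06 on normal and -1.24 on western diet. Clec10a, its paralogue, was at 1.54 on normal and -1.20 on western diet. Dab2, an endocytic adaptor, was at 1.51 on normal and -1.88 on western diet. Fbxo32, a ubiquitin ligase subunit, was at -1.27 on normal and 3.24 on western diet. Psmb9, an immunoproteasome subunit, was at 1.35 on normal and -2.15 on western diet. Cd14, the endotoxin co-receptor, was at 1.67 on normal and -1.79 on western diet. Acta2, smooth muscle actin, was at -1.76 on normal and 1.58 on western diet. The western-diet ratios rest on 7 LysM-DKO/ApoE-/- members. Acta2 and Fbxo32 there came with the 3 members rich in smooth muscle genes, and the Acta2 ratio on western diet was -1.08 without the 3 groups set apart.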

How the results depend on the processing

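The share of kept barcodes moved beyond its counting interval under 18 of 56 alternatives. With thinning it was 0.297%, 0.243%, 0.160% and 0.0246%, and for members with Ptprc over all Ptprc barcodes 2.15%, 1.64%, 2.66% and 3.87%. With 1 dendritic UMI it was 1.26%, 0.887% and 0.582% in the first 3 libraries, and with 3 it was 0.320% in WT/ApoE-/-. With up to 20% mitochondrial UMIs it was 0.590% and 0.377% in the normal-diet libraries. In WT/ApoE-/- it was 0.222% with a minimum of 500 UMIs and 0.699% with 2000. The first library stood at 0.554% without the barcodes rich in B cell genes and 0.438% without all 3 groups.

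Members with Ccr7 made up 65.1%, 53.5%, 48.3% and 0% after thinning to 1000 UMIs, and Cd209a alone 16.3% in LysM-DKO on normal diet. The share with the type 1 pair and no Ccr7 in the first library was 0% without the 3 groups. Of 84 such shares 78 stayed within their interval.

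Counts of genes past 2 fold followed the filter. Higher and lower, at least 50 UMIs gave 66 and 160 for genotype on normal diet, 102 and 139 on western diet, 190 and 191 for diet in WT, and 116 and 158 in LysM-DKO, against 428 and 883, 860 and 632, 724 and 904, and 1065 and 678 at 10 UMIs. Members without Ccr7 gave 84 and 84, 141 and 171, 177 and 102, and 146 and 119. Genes lower for genotype on normal diet came to 304 with doublet-marked barcodes removed and 232 without the 3 groups, against 459.

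Of 3760 alternative values of single genes, 48 changed sign. Among members without a UMI of Ccr7, ratios that changed sign were for genotype on normal diet Fbxo32 at 1.59, Il2rb at 0.86, Cd209a at -0.53, Nabp1 at 1.15, Clec10a at -0.73, Ctss at -0.18, Cxcl2 at -3.22, Cd14 at -2.56, Psmb9 at -0.73 and Napsa at -0.11, and for genotype on western diet Fabp5 at 1.99, and for diet in WT Ccl22 at 1.11, Igf2r at 0.38, Fbxo32 at 1.11, Ccl5 at 1.96, S100a10 at -0.24, Nabp1 at 1.85, Relb at 1.60, Cxcl2 at -1.88, Abca1 at -1.37, Serpinb6b at 0.38 and Ly75 at 1.11, and for diet in LysM-DKO Igf2r at -1.21, Ccl4 at 3.10 and Cd14 at 1.02. Without the highest member of each library, ratios that changed sign were for genotype on western diet Ifitm1 at -0.63, Hist1h1b at -2.39 and Slc41a1 at -0.99, and for diet in WT Cfb at 0.36, and for diet in LysM-DKO Ifitm1 at -0.064 and Slc41a1 at -0.12. Without the 3 groups set apart, ratios that changed sign were for genotype on normal diet Atp1b1 at 2.05 and Ccr9 at 1.97, and for genotype on western diet Fbxo32 at -0.16, Npy1r at -0.16 and Acta2 at -1.08, and for diet in WT Ccr9 at 0.89, and for diet in LysM-DKO Dsp at -0.13, Igf2r at -0.52, Fbxo32 at -0.68, Npy1r at -0.52 and Acta2 at -1.51. With doublet-marked barcodes removed, ratios that changed sign were for genotype on western diet Npy1r at -1.49, and for diet in LysM-DKO Cytl1 at 0.053 and Npy1r at -1.05. With at most 1 C1q UMI, ratios that changed sign were for diet in WT Cfb at 2.10. With equal weight for each member, ratios that changed sign were for genotype on normal diet Fbxo32 at 0.030 and Cxcl9 at 0.82. Leaving out the 3 groups or the highest members was chosen after seeing the data, the other settings were planned. The cause of these changes was not tested. Only 5, 6, 14 and 5 members had no Ccr7, so those ratios rest on few barcodes. No paired analysis was possible because each group had 1 library and no replicate numbers. At 69199 UMIs the LysM-DKO/ApoE-/- members set the precision of both contrasts that use them.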
